A study of Mus musculus with 4 samples.

Results

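The complement system is a cascade of plasma and tissue proteins that tags cells and debris for removal. Its classical pathway starts when C1q, a bundle of A, B and C chains with collagen-like stems, binds a target and activates the proteases C1r and C1s. C1s cleaves C4 and C2, the alternative pathway amplifies the signal through C3 and factor B, and inhibitors such as C1 inhibitor restrain it. The liver makes most plasma complement, whereas in tissues C1q is made mainly by macrophages and C1s, C3, C4 and C1 inhibitor largely by fibroblasts and other stromal or epithelial cells. Described here are 9 complement genes among the 55401 gene identifiers of the table. They are the C1q subunits C1qa, C1qb and C1qc, the components C1s1, C3, C4b, Cfb and Serping1, called stromal components below, and the anaphylatoxin receptor gene C3ar1. Each symbol matched 1 Ensembl gene, and all 9 passed the filter on low counts.

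The genes were measured by poly(A) RNA-seq in pancreatic tissue taken beside tumours of Panc02, a mouse pancreatic ductal adenocarcinoma line. The 2 wild-type (WT) libraries, WT 1 and WT 2, were compared with 2 libraries from mice with a conditional knockout of CRFR1, a receptor for the stress peptide corticotropin-releasing factor (CRFR1-KO 1 and CRFR1-KO 2). Both genotypes carried the tumour. The sources used here do not give the promoter or Cre line behind the knockout, the strain, age or sex of the mice, or any pooling of animals. The labels do not say that libraries came from separate animals, so the spread between libraries may be technical.

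Libraries held between 63495457 and 71203640 counts, of which the acinar genes, mostly digestive enzymes, took 81.9% (WT 1) to 85.4% (CRFR1-KO 1). Crhr1, which encodes CRFR1, had 0 counts in all 4 libraries, so it gave no check of the labels. Levels are counts-per-million (CPM) on library sizes scaled by the trimmed mean of M values (TMM), where 3 counts are worth 0.0363 to 0.048 CPM. Log2 fold changes are CRFR1-KO over WT from edgeR's quasi-likelihood fit over 15131 genes, with a standard error (SE). The summed fibroblast and macrophage markers were highest in WT 1, as were the complement genes, and values that rest on that library are given with and without it. The 9 genes were selected on earlier results of these 4 libraries, their differences between genotypes included, so those differences are descriptions without a test.

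All 9 genes were highest in WT 1, against 26.1% of the tested genes, and 8 of them were lowest in CRFR1-KO 1. Both WT libraries lay above both CRFR1-KO libraries for 5 of the 9, namely the C1q subunits, C3 and C3ar1. The same order held for 16.9% of all tested genes. The fitted log2 fold change was below 0 for all 9, with a median of -0.90, against 50.8% of all tested genes and a median of -0.01. Of the 9, 0 passed edgeR's Benjamini-Hochberg adjustment over all genes at 0.05, where 0.0264% of tested genes were called in either direction and 0.0132% as lower. Before adjustment, 4 had an edgeR p under 0.05, all lower, and over all tested genes the share was 4.86% in either direction and 3.15% lower. DESeq2 called 0 of the 9 (0.333% of its tested genes) and limma-voom 0 (0%). Without WT 1 the median over the 9 genes was -0.19 and 7 of them were lower, against 48.9% of all tested genes. Since the 9 were selected on this contrast, their counts are a description, and nothing is read from how they compare with the shares over all genes.

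**Figure D1:**
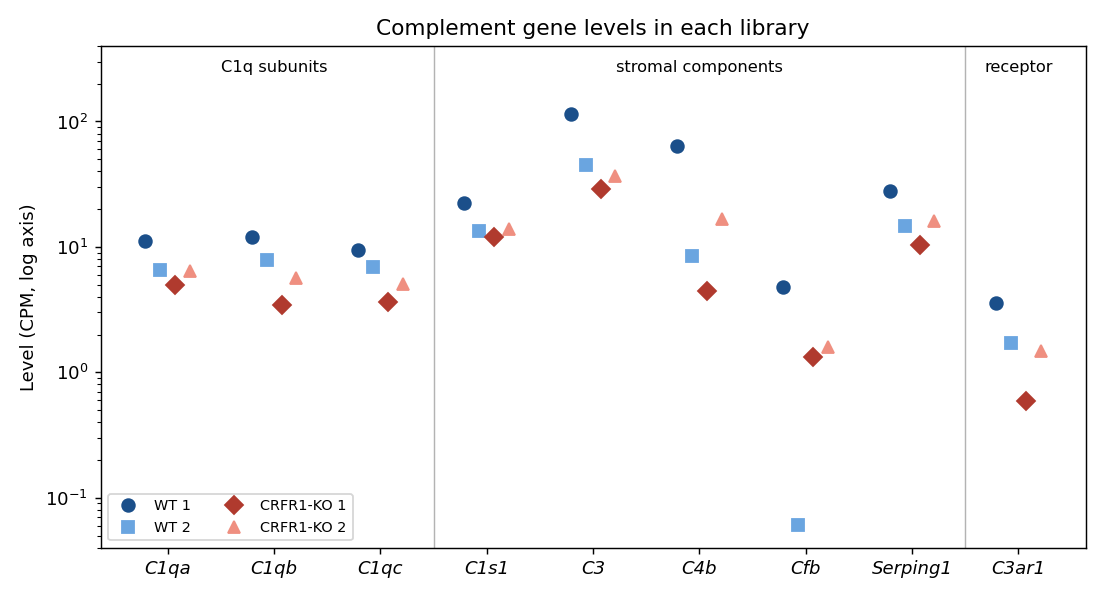
Level of each complement gene in each of the 4 libraries, in counts-per-million on a logarithmic axis, with 1 point per library. WT 1 is the highest point for all 9 genes, and Cfb in WT 2, at 0.0611 CPM, lies far below the rest.

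For each C1q subunit gene, both knockout libraries lay below both wild-type libraries. The subunit genes lie side by side on the minus strand of chromosome 4, from 136880129 to 136898803 (GRCm38, GENCODE M21), within 18.7 kb. C1qa (ENSMUSG00000036887), encoding the A chain, had 926 counts in WT 1 and 425 in WT 2, against 312 in CRFR1-KO 1 and 417 in CRFR1-KO 2, or 11.2, 6.49, 4.99 and 6.37 CPM. WT 2 and CRFR1-KO 2 were thus nearly level for C1qa, and on library totals without a scaling factor the genotypes overlapped. C1qb (ENSMUSG00000036905), encoding the B chain, had 981, 513, 215 and 367 counts in the same order, or 11.9, 7.84, 3.44 and 5.61 CPM. C1qc (ENSMUSG00000036896), encoding the C chain, had 779, 450, 227 and 333 counts, or 9.42, 6.88, 3.63 and 5.09 CPM. For these B and C chain genes the WT libraries stayed above the CRFR1-KO libraries under every scaling tried.

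The mean levels for C1qa were 8.85 ± 3.33 CPM (SD, n = 2) in WT and 5.68 ± 0.974 CPM (SD, n = 2) in the knockout, with a log2 fold change of -0.64 (SE 0.29). C1qb stood at 9.85 ± 2.85 and 4.52 ± 1.53 CPM (log2 fold change -1.12, SE 0.30) and C1qc at 8.15 ± 1.80 and 4.36 ± 1.03 CPM (log2 fold change -0.90, SE 0.26). The gap between the WT libraries was 1.37-fold to 1.73-fold for these genes, and that between the CRFR1-KO libraries 1.28-fold to 1.63-fold. Averaged over the subunits, the log2 fold change was -0.89. It was -0.55 without WT 1, with C1qa at -0.19, C1qb at -0.79 and C1qc at -0.66, and -1.16 without WT 2. In bulk tissue, fewer cells of a type and less RNA per cell cannot be told apart.

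The proportions of the chains also differed between libraries. A ratio of counts per exon length does not depend on the scaling of a library. C1qb over C1qa was 1.01 in WT 1 and 1.15 in WT 2, and 0.659 in CRFR1-KO 1 and 0.841 in CRFR1-KO 2. C1qc over C1qa was 0.453 and 0.570 for WT against 0.392 and 0.430 for CRFR1-KO. Both ratios were higher in each WT library than in either CRFR1-KO library, that is, C1qa was the subunit with the smallest difference between genotypes. With 2 libraries a group, an exact two-sided permutation test cannot go below 0.333, so no test was made. The level of C1qc relative to C1qa depends on the length used, since the merged exons of C1qc span 1931 bp and its principal transcript 1203 bp. With the principal transcript, C1qc over C1qa was 0.629 to 0.915 over the 4 libraries.

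The promoters of C1qb and C1qc are shown because these neighbouring genes ranked the 4 libraries alike. That of C3 is shown because it is the stromal component whose genotypes did not overlap. C1qa, C3 and C3ar1 ranked the libraries in the same order by CPM, so the order is not particular to C1qb and C1qc. The sequences are RefSeq's (GRCm38.p6), from 250 bases before to 50 bases after the annotated start, and 5 of the 9 genes had one in the table used. C1qa, C4b, Cfb and Serping1 had none. Capitals mark matches on either strand to GAGGAA, the core of the purine-rich box bound by PU.1, a transcription factor of myeloid cells, or, in C3, to TTGCNNAA, a C/EBP-type motif. C/EBP proteins take part in acute-phase transcription.
C1qb (chr4:136886151-136886450, minus strand): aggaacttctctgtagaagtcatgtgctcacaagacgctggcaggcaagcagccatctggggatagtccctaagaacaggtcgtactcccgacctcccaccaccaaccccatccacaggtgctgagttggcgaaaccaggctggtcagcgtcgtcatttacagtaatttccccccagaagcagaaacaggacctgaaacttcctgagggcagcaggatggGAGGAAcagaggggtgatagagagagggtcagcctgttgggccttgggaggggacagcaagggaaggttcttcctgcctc
C1qc (chr4:136892865-136893164, minus strand): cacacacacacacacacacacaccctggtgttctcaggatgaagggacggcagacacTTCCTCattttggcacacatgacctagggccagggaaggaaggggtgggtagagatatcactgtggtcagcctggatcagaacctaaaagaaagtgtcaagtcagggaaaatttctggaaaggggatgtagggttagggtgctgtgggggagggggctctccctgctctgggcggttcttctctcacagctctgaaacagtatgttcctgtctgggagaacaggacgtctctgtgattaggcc
C3 (chr17:57228087-57228386, minus strand): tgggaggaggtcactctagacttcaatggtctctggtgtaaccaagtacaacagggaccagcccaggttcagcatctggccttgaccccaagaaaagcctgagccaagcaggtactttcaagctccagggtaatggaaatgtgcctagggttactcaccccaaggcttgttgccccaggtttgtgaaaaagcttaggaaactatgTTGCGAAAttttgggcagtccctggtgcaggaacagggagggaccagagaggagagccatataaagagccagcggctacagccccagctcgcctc

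The GAGGAA match began 30 bases upstream of the start in C1qb, and in C1qc its complement TTCCTC began 193 bases upstream. C3, C1s1 and C3ar1 held no such match, and 28.3% of the 32851 promoters of this length did. TTGCNNAA was matched in C3, 45 bases upstream, and in one of the C1s1 windows, 242 bases upstream, and in 10.8% of all promoters. The 5 genes held no match to an interferon-stimulated response element-type motif (GAAA and GAAA with 2 bases between them, in 3.44% of all promoters), an interferon-gamma activated site-type motif (TTCNNNGAA, 8.3%) or an NF-kappaB-type motif (GGGA and TTTCC with 1 base between them, 0.411%). These motifs were searched on both strands, and a match describes the letters in the window only.

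The stromal components were each highest in WT 1, and their order among the other 3 libraries varied. C1s1 (ENSMUSG00000038521, chromosome 6), encoding the C1s protease, had 1857 and 871 counts in the WT libraries against 747 and 908 in CRFR1-KO. The levels were 22.5 and 13.3 CPM in WT 1 and WT 2, and the knockout mean was 12.9 ± 1.36 CPM (SD, n = 2), with 13.9 CPM in CRFR1-KO 2. WT 2 lay between the CRFR1-KO libraries, so the genotypes overlapped for C1s1. Its log2 fold change of -0.47 (SE 0.26) was -0.04 without WT 1. Serping1 (ENSMUSG00000023224, chromosome 2), encoding C1 inhibitor, which blocks C1r and C1s, behaved alike, with 2324 and 955 counts in the WT libraries against 653 and 1057 in CRFR1-KO, or 28.1, 14.6, 10.4 and 16.1 CPM. Its log2 fold change was -0.68 (SE 0.34) with all libraries and -0.13 without WT 1. C1s1 overlaps an antisense gene, Gm16567, and without a stated strand setting their reads cannot be told apart.

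C3 (ENSMUSG00000024164, chromosome 17), the component on which all activation pathways converge, was the stromal component whose genotypes did not overlap. It had 9452 counts in WT 1 and 2919 in WT 2, against 1807 in CRFR1-KO 1 and 2420 in CRFR1-KO 2, or 114, 44.6, 28.9 and 37.0 CPM. WT 1 was 2.56-fold above WT 2, and the CRFR1-KO libraries differed 1.28-fold. The WT mean was 79.5 ± 49.3 CPM (SD, n = 2) and the CRFR1-KO mean 32.9 ± 5.70 CPM (SD, n = 2), a log2 fold change of -1.27 (SE 0.41). Without WT 1 the log2 fold change was -0.44. Without WT 2, which leaves WT the highest library alone, it was -1.79.

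C4b (ENSMUSG00000073418, chromosome 17), encoding complement C4, spread most within a genotype among those of the 9 that share no exon with another gene model. Its counts were 5319 in WT 1 and 551 in WT 2, against 280 in CRFR1-KO 1 and 1086 in CRFR1-KO 2, or 64.3, 8.42, 4.48 and 16.6 CPM. WT 1 was 7.64-fold above WT 2, CRFR1-KO 2 was 3.70-fold above CRFR1-KO 1, and WT 2 lay below CRFR1-KO 2. The log2 fold change of -1.79 had an SE of 0.91, and it was 0.33 without WT 1. C4a, a near-identical copy of C4b, had 93 and 32 counts in the WT libraries against 15 and 35 in CRFR1-KO. Reads shared between the copies could be divided either way by the counting program, so the level of each is uncertain.

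Cfb (ENSMUSG00000090231), encoding factor B, which forms the alternative-pathway convertase with C3b, shares exons with a model that runs through Cfb and its neighbour C2. Cfb had 397 counts in WT 1 and 4 in WT 2, against 83 in CRFR1-KO 1 and 104 in CRFR1-KO 2. The shared model, Gm20547 (ENSMUSG00000092511; chromosome 17, 34856412 to 34882042, minus strand), had 115 counts in WT 2, against 0 in WT 1 and 0 and 3 in the CRFR1-KO libraries. The library in which Cfb was nearly empty was thus the one in which Gm20547 was filled. C2, which encodes the classical-pathway protease that pairs with C4b, was also lowest there, at 41 counts against 212, 136 and 116 in the other libraries.

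Summed with Gm20547, Cfb had 397 and 119 counts in the WT libraries against 83 and 107 in CRFR1-KO, or 4.80, 1.82, 1.33 and 1.63 CPM. On these TMM-scaled levels the genotypes no longer overlapped, as they did for Cfb alone at 4.80, 0.0611, 1.33 and 1.59 CPM. On library totals without a scaling factor the summed level still overlapped. WT 2 had 119 of 71203640 counts and CRFR1-KO 2 had 107 of 63495457, which puts WT 2 slightly lower. The log2 fold change of Cfb alone was -0.75 (SE 1.24), and 4.53 without WT 1. Summed with Gm20547 it was -1.16, and -0.29 without WT 1. Adding C2 as well gave 609 and 160 counts for WT against 219 and 223 for CRFR1-KO, which overlapped. How the authors' counting divided reads between these models was not stated.

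**Figure D2:**
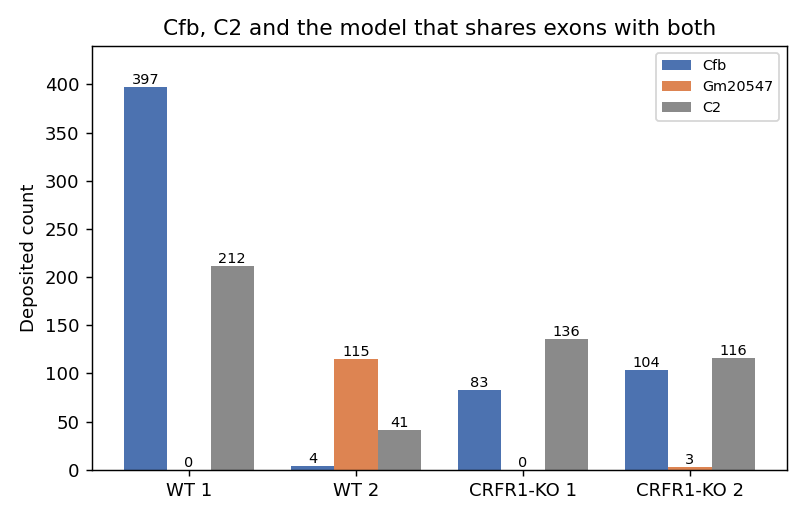
Deposited counts of Cfb, C2 and Gm20547, the model that shares exons with both, in each library, with 1 bar per model. Gm20547 holds 115 counts in WT 2 and at most 3 elsewhere, while Cfb holds 4 counts in WT 2.

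C3ar1 (ENSMUSG00000040552, chromosome 6), encoding the receptor for the C3a fragment on myeloid cells, had 294 and 111 counts in the WT libraries against 37 and 96 in CRFR1-KO. These are 3.56, 1.70, 0.592 and 1.47 CPM, with both WT libraries above both CRFR1-KO libraries. WT 1 was 2.10-fold above WT 2, and CRFR1-KO 2 was 2.48-fold above CRFR1-KO 1. The log2 fold change was -1.35 (SE 0.54), and -0.72 without WT 1. The spread within each genotype was therefore close to the 2.55-fold ratio of the genotype means.

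Set side by side, the C1q subunits and the stromal components had mean fitted log2 fold changes of -0.89 and -0.99 in edgeR with all 4 libraries, and of -0.89 and -0.52 in limma-voom. The mean of log2 levels per library differed by -0.88 and -0.44 between genotypes. The stromal value depended on how the 4 counts of Cfb in WT 2 enter, since a fitted fold change compares mean levels and a mean of logs gives a near-empty library full weight. Without Cfb, the difference in mean log2 levels was -0.91 for the stromal components and the edgeR mean -1.05. Without WT 1 the means were farther apart, a difference that was not tested. The subunit mean was then -0.55, whereas the stromal mean was 0.85 with Cfb as deposited and -0.12 with Cfb and Gm20547 summed. Per library, the geometric mean level of the C1q subunits was 10.8 CPM in WT 1 and 7.05 in WT 2, against 3.97 in CRFR1-KO 1 and 5.66 in CRFR1-KO 2. That of the stromal components, Cfb and Gm20547 summed, was 29.5, 10.6, 7.35 and 11.8 CPM. The C1q level thus separated the genotypes, and this stromal level did not, since WT 2 lay below CRFR1-KO 2. That order was widest in C4b, whose level is uncertain, at 8.42 CPM in WT 2 against 16.6 in CRFR1-KO 2. WT 2 was lower by less in C1s1 and Serping1, and higher in C3 and in Cfb with Gm20547. The geometric mean was not taken without C4b.

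The difference between the groups was also taken within each library, which removes its scaling. The mean log2 level of the C1q subunits minus that of the stromal components as deposited was -1.45 in WT 1 and 0.39 in WT 2, against -0.89 and -1.05 in the CRFR1-KO libraries, a difference of -0.44 between genotypes. With Gm20547 added to Cfb the value in WT 2 became -0.59 and the difference between genotypes 0.05. The WT libraries lay on either side of the CRFR1-KO libraries in both versions. No difference between the C1q subunits and the stromal components by genotype was therefore detectable beyond the spread between WT libraries.

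Compared per exon length, C3 was the most abundant of the 9 genes, at 8.84 to 45.4 transcripts-per-million (TPM, computed from the counts) over the 4 libraries. Serping1 followed at 7.06 to 24.7, C1qa at 7.55 to 22.0, C1qb at 4.97 to 22.3, C1s1 at up to 14.7 (mean 8.89), C4b at 1.24 to 23.1 and C1qc at 2.96 to 9.97 TPM. Cfb, at 0.0357 to 3.47 TPM, and C3ar1, at 0.216 to 1.69 TPM, were the scarcest. Each gene's range overlapped that of its neighbour in this order. With principal transcript lengths Serping1 lay above C3 in both CRFR1-KO libraries, at 9.29 against 8.85 and 16.2 against 12.8 TPM. C4b per length was 0.508 of C3 in WT 1 and 0.405 in CRFR1-KO 2, but 0.170 in WT 2 and 0.140 in CRFR1-KO 1.

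Summed markers of macrophages and fibroblasts were also higher in both WT libraries than in the CRFR1-KO libraries. All 12 macrophage markers were detected, and 11 of 12 had a fitted log2 fold change below 0 (median -0.87, and -0.47 with 9 of 12 below 0 without WT 1). Their summed level was 117 CPM in WT 1 and 85.2 in WT 2, against 40.3 in CRFR1-KO 1 and 67.6 in CRFR1-KO 2. The summed C1q subunits, at 32.5, 21.2, 12.1 and 17.1 CPM, followed the same order of libraries, as did the summed fibroblast markers given below. Set against the macrophage markers, the C1q subunits stood at 0.277 and 0.249 in the WT libraries against 0.299 and 0.252 in CRFR1-KO. This ratio overlapped between genotypes and spanned 0.249 to 0.299, while the C1q level itself spanned 12.1 to 32.5 CPM. Set against the fibroblast markers instead, the C1q subunits stood at 0.0613 and 0.0822 for WT against 0.0658 and 0.0816 for CRFR1-KO. That ratio overlapped as well, so a narrow span was not particular to the macrophage markers.

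The 12 fibroblast markers were also all detected, with 11 of 12 below 0 (median -0.71, and -0.44 with 9 of 12 below 0 without WT 1) and a summed level of 530 and 258 CPM for WT against 183 and 209 CPM for CRFR1-KO. The stromal components summed to 234, 81.0, 57.1 and 85.2 CPM, which is 0.442, 0.314, 0.311 and 0.407 of the fibroblast markers. Without C4b the ratio was 0.320, 0.281, 0.287 and 0.328. Both ratios overlapped between genotypes. The part of either marker list in the complement differences was not tested. The 9 acinar markers ran the other way in edgeR, with 9 of 9 above 0 (median log2 fold change 0.27, and 0.12 with 6 of 9 above 0 without WT 1). Their sum was lowest in WT 1, at 227635 CPM, and highest in CRFR1-KO 1, at 308566 CPM, where 8 of the 9 complement genes were lowest. WT 2 and CRFR1-KO 2 lay between, at 279689 and 269552 CPM. Of 5 neutrophil markers, S100a8, S100a9 and Ly6g were at 0 in every library, and Csf3r alone passed the filter, with a log2 fold change of -1.44 (-1.02 without WT 1). The neutrophil sum was 1.34 and 0.749 CPM for WT against 0.352 and 0.382 CPM for CRFR1-KO, so it too was higher in both WT libraries. Of 7 hepatocyte markers, Fgb, Serpina1c and Apoh were at 0 in every library, and the list summed to 6.99, 15.0, 11.5 and 9.73 CPM, which overlapped between genotypes. Of 6 endothelial markers, 4 were higher in CRFR1-KO (6 without WT 1), with sums of 44.7 and 36.2 CPM for WT against 42.9 and 48.9 CPM for CRFR1-KO. Of 6 mesothelial markers, 5 were higher (3 without WT 1), with sums of 10.5 and 13.6 CPM for WT against 18.4 and 11.5 CPM for CRFR1-KO. Both sums overlapped between genotypes, as did those of lymphocyte and adipocyte markers. The part of these lists was not tested either.

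**Figure D3:**
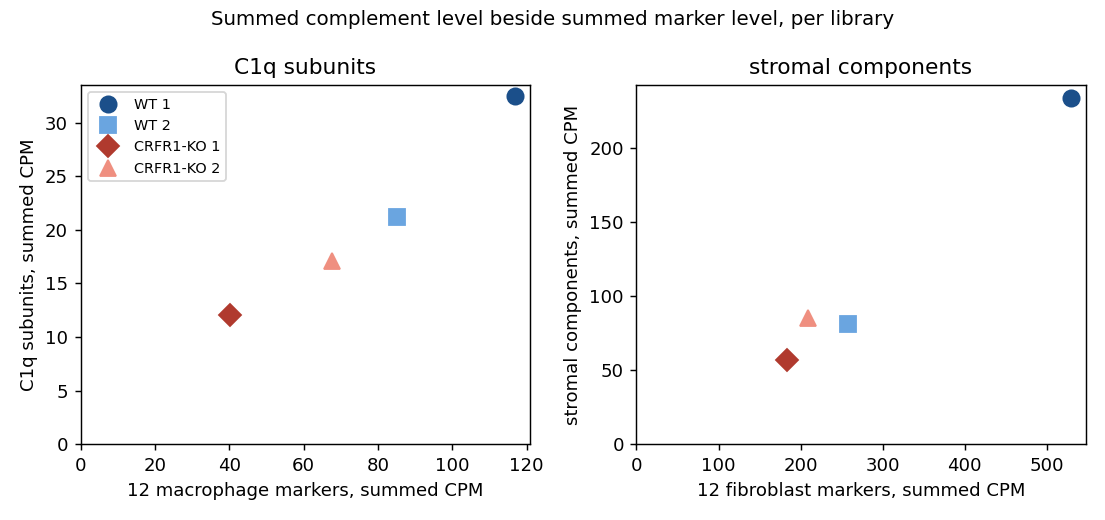
Summed level of the C1q subunits against 12 macrophage markers (left) and of the stromal components against 12 fibroblast markers (right), in counts-per-million with both axes from 0 and 1 point per library. The C1q sums, 12.1 to 32.5 CPM, rank the libraries as the macrophage markers do, and the fibroblast markers rank them in that order too. On the right CRFR1-KO 2 (85.2 CPM) lies above WT 2 (81.0 CPM) despite a lower fibroblast marker sum. C4b, part of these stromal sums, is at 16.6 CPM in CRFR1-KO 2 and 8.42 in WT 2.

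Genes with the nearest pattern were sought among 5722 genes of at least 5 CPM, by the root mean square distance of centred log2(CPM + 0.5) values over the 4 libraries. Nearest to the C1q profile were Fbn1, encoding the microfibril protein fibrillin-1 (distance 0.051), Csf1r, the receptor through which macrophages are maintained (0.062), Fcgrt, the neonatal Fc receptor (0.065), and Sirpa, an inhibitory receptor of myeloid cells (0.066). C1qc itself lay at 0.055 from the mean of its group and C1qa at 0.148. Nearest to the stromal profile were the collagen gene Col5a1 (0.174), the cell adhesion gene Nfasc (0.195), Pigr, the polymeric immunoglobulin receptor (0.198), and the kallikrein gene Klk1b4 (0.203). The stromal members lay farther from their own mean, at 0.295 for C3 to 0.675 for Cfb. C1s1 and Serping1 lay nearer the C1q profile, at 0.227 and 0.162, than the stromal profile, at 0.432 and 0.319. C3, C4b and Cfb lay nearer the stromal profile, C3 narrowly, at 0.295 against 0.314. Each is part of the stromal mean, so some of this nearness is built in. The stromal profile took Cfb as deposited, with 4 counts in WT 2, so its nearest genes depend on that value. With 4 libraries these distances are descriptions.

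The rest of the pathway was read from a list of 54 complement genes by role, of which 45 are not among the 9. Of those 45, 8 had 0 counts in all 4 libraries, among them Hc, encoding C5, the terminal components C8a and C9 and the mannose-binding lectins Mbl1 and Mbl2. If each count is an independent read, a count of 0 allows a level of up to 3 counts, here at most 0.048 CPM. What a deposited count stands for in reads is not settled, so this bound may be too low. The filter passed 27 of the 45, with 17 lower and 10 higher in CRFR1-KO and a median log2 fold change of -0.14. Over all tested genes 50.8% were lower, with a median of -0.01. Of the 27, 0 passed the edgeR adjustment (0.0264% of all tested genes). Before it, 1 had an edgeR p under 0.05 (4.86% of all tested genes). DESeq2 called 0 of them (0.333% of its tested genes), as did limma-voom (0%). Both WT libraries lay above both CRFR1-KO libraries for 6 of the 27, and the reverse held for 0, against 16.9% and 16.6% of all tested genes. Without WT 1, 12 of 28 were lower, against 48.9% of all tested genes, and the median of the 28 was 0.04.

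In the classical pathway C1ra, encoding the C1r protease that activates C1s, had 718 and 407 counts in the WT libraries against 285 and 380 in CRFR1-KO, or 8.69, 6.22, 4.56 and 5.80 CPM. Its WT libraries lay above its CRFR1-KO libraries, except on library totals, and its log2 fold change was -0.52 (SE 0.24, edgeR adjusted p = 1). C1rb and C1s2, copies of C1ra and C1s1, had at most 55 and 10 counts in a library. In the lectin pathway Fcna, encoding ficolin A, a pattern-recognition lectin made by macrophages, had 206 and 129 counts in the WT libraries against 32 and 80 in CRFR1-KO. Its log2 fold change was -1.36 (SE 0.48, edgeR adjusted p = 0.985). Fcna overlaps an antisense gene, Fcnaos, and without a stated strand setting their reads cannot be told apart. It was the gene of the list outside the 9 with an edgeR p under 0.05 before adjustment, and its log2 fold change was -1.18 without WT 1. Fcna, C7 and C5ar1 were named after their values were seen.

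Among the regulators Clu, encoding clusterin, which blocks membrane attack complex assembly, stood at 528 and 435 CPM for WT against 519 and 478 CPM for CRFR1-KO. Its log2 fold change was 0.05 (SE 0.21), and -0.10 on library totals. Vtn, encoding vitronectin, another inhibitor of that complex, had a log2 fold change of -0.17 (SE 0.19), and Cpn1, the catalytic subunit of the carboxypeptidase that inactivates anaphylatoxins, of -0.13 (SE 0.17). Cr1l, the mouse membrane regulator Crry, was at -0.08 (SE 0.22). None of these passed the adjusted threshold (edgeR adjusted p = 1 for each). C7, an early component of the membrane attack complex, had 175 and 19 counts in the WT libraries against 12 and 428 in CRFR1-KO, so that CRFR1-KO 2 was 34.1-fold above CRFR1-KO 1. Like C4b, C7 was high in WT 1 and CRFR1-KO 2 and low in WT 2 and CRFR1-KO 1.

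Among the receptors the integrin gene Itgb2, whose product forms complement receptors 3 and 4, stood at 5.65 and 6.97 CPM for WT against 5.38 and 5.32 CPM for CRFR1-KO, with a log2 fold change of -0.24 (SE 0.20, edgeR adjusted p = 1). Unlike C1q and C3ar1 it was higher in WT 2 than in WT 1. Cd93, a receptor of endothelial and myeloid cells once assigned to C1q, was at -0.19 (SE 0.27), and C1qbp, a mainly mitochondrial protein that binds C1q, at 0.17 (SE 0.23). C5ar1, the C5a receptor, had 81 and 18 counts in the WT libraries against 36 and 48 in CRFR1-KO, and the genotypes overlapped.

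**Figure D4:**
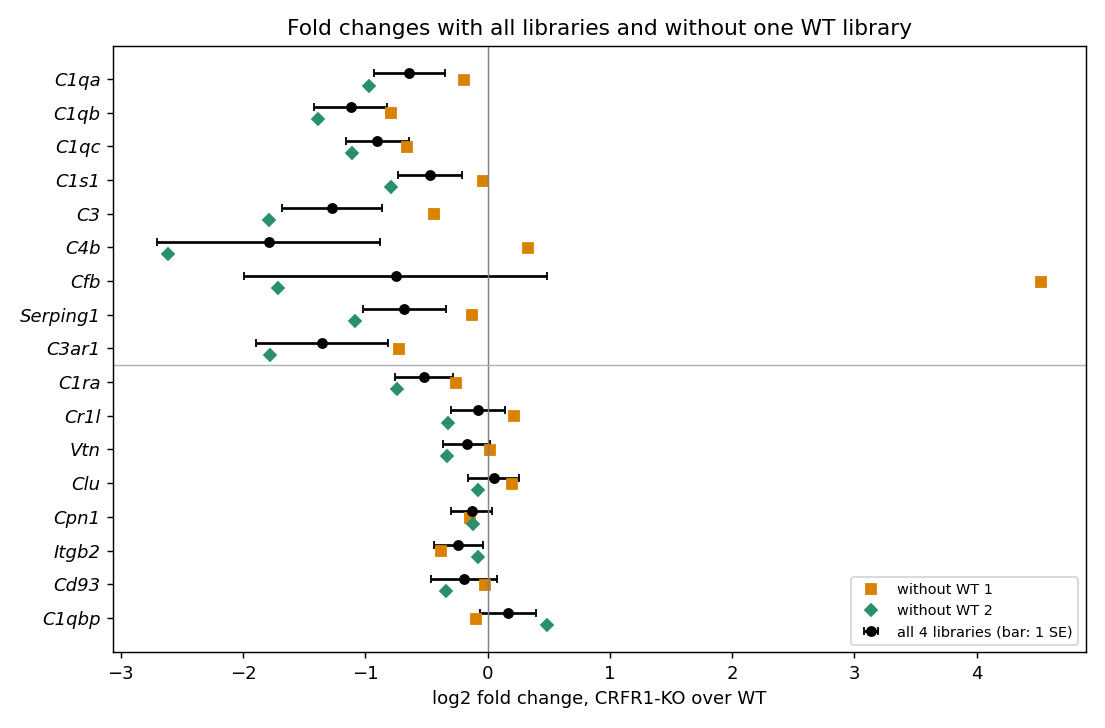
Log2 fold change of CRFR1-KO over WT for the 9 complement genes (above the line) and 8 other complement genes of at least 5 CPM (below it), with all 4 libraries (circles, bars of 1 SE), without WT 1 (squares) and without WT 2 (diamonds). Without WT 1, C4b and Cfb lie above 0, at 0.33 and 4.53, and C1qb and C1qc stay at -0.79 and -0.66.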

How the data were processed

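The authors deposited a table of whole-number counts per Ensembl gene for 4 libraries, without normalization. Libraries were poly(A)-selected and dUTP-stranded, per the labels' protocols. The submitters' processing notes name FastQC, DESeq2 and edgeR. The sources used here give no aligner, counter, strand setting or genome build. Of 55401 identifiers, 55141 had a symbol in GENCODE M21 (GRCm38), which also gave positions and exon lengths. Total counts ranged from 63495457 to 71203640, and SDs and SEs rest on 2 libraries per group.

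Counts were fitted in R 4.3.3 with edgeR 4.0.16 (TMM, filterByExpr, two-sided quasi-likelihood F test on group alone), adjusted by the Benjamini-Hochberg method over 15131 genes at 0.05. The SE was derived from the F statistic. DESeq2 1.42.0, limma-voom (limma 3.58.1), other scalings and filters, summed gene models, a block for replicate number and the omission of each library were alternatives. Summing Cfb with Gm20547, leaving Cfb out, principal transcript lengths, a crossed block and dividing counts by 4 were added after seeing the data. A count of 4 was held by 913 genes in WT 1, a count of 3 by 349 and a count of 5 by 242, so what a deposited count stands for in reads is not settled. The edgeR fit was tested on simulated data.

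The members, gene lists, motifs and tests were chosen with earlier results of these data known. Named genes were the 9 members, complement genes of at least 5 CPM or past the threshold, and the 4 nearest genes per profile. The values of 1 gene that met this rule are not reported here. Other genes named were chosen after their values were seen.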

Additional observations from a re-analysis of the deposited data

How the results depend on the processing

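The mean log2 fold change of the C1q subunits kept its direction under every alternative, at -1.16 to -0.55 when a library was left out. Both WT libraries lay above both CRFR1-KO libraries for each subunit, so leaving out a library could hardly turn it. The subunits were also selected on this contrast, so the kept direction is a description. That of the stromal components ran from -1.60 without WT 2 to 0.85 without WT 1, and the difference between the groups from -1.36 without WT 1 to 0.48 without WT 2. With Gm20547 added to Cfb, the values without WT 1 were -0.12 for the stromal mean and -0.39 for the difference. With all libraries the difference of -0.44 became 0.03 without Cfb and 0.05 with Gm20547 added to Cfb. It was 0.03 with at least 10 counts in every library, a filter that Cfb fails. DESeq2, limma-voom and the block give no such per-library difference and were not run for it. Of the 54 complement genes listed, edgeR called 0 to 1 when a library was left out (C3 without WT 2, where WT 1 stands alone and is assumed to vary like CRFR1-KO, and where C3 was selected on this contrast, so that the call is no test). Over all genes it called 4, against 59 with DESeq2, 0 with limma-voom, 0 with exon-sharing models summed and 0 to 69 when a library was left out. Scaling on library totals moved the median of all genes to -0.13 and the C1q mean to -1.04. With the replicate block edgeR called 7 genes, the C1q mean was -0.88 and the stromal mean -0.59. Replicate 1 minus 2 differences correlated at -0.128 between genotypes across 5850 genes, and a block with the numbers crossed called 13. Signs turned in single genes. Cfb was at 1.01 with limma-voom, 0.68 with the block and 0.63 with the crossed block. When a library was left out, Cfb ran from -1.71 to 4.53, C4b from -3.01 to 0.33, Cr1l from -0.32 to 0.22 and Vtn from -0.33 to 0.02, each highest without WT 1. C1qbp ran from -0.09, without WT 1, to 0.49, Clu from -0.08 to 0.20, with -0.10 on library totals and -0.01 without CRFR1-KO 1, Cpn1 from -0.29 to 0.01 and Cd93 from -0.52 to 0.08. The causes were not tested.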

Other observations

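Genes induced by interferon-gamma, a cytokine that raises several complement genes, were read from a list of 12, of which 10 passed the filter. In CRFR1-KO 6 were lower and 4 higher, with a median log2 fold change of -0.15, where 50.8% of all tested genes were lower. Of the 10, edgeR called 0, against 0.0264% of all tested genes. Before adjustment 0 had an edgeR p under 0.05, against 4.86% of all tested genes. With 10 genes, nothing is read from these counts of 0. Their summed level was 28.5 CPM in WT 1 and 15.7 in WT 2, against 20.1 in CRFR1-KO 1 and 20.3 in CRFR1-KO 2. WT 1 was highest, as for the complement genes, but WT 2 was lowest. Without WT 1, 10 of 11 had a log2 fold change above 0, with a median of 0.42, where 48.9% of all tested genes were below 0. Of the 9 complement genes, 7 were then below 0, the C1q subunits among them. C4b, at 0.33, and Cfb, at 4.53 as deposited, were above 0, and Cfb summed with Gm20547 was at -0.29. A part of interferon-gamma was not tested.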
